A study of Mus musculus with 6 samples.

Results

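Heart muscle RNA was followed in mouse lung through 35 genes of the cardiac sarcomere, of calcium handling and of the natriuretic peptides. The members were chosen by name from what they are known to do in heart muscle, and earlier results of these data were known then. All 35 were found among the 24054 gene rows. A mean level of at least 1, in normalized RPM (reads scaled to library size) over the 6 libraries, was reached by 33 of them, among 14159 genes that reached it, and these were tested. Myl2 and Nppb did not reach it and are given as values.

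The lungs came from 6 female SCID mice, 3 in each of 2 groups, and every mouse had received labelled extracellular vesicles (EVs) by tail vein, 48 h before 500000 rat ELT3 cells were given intravenously. The rat cell burden of the lungs was read 72 h after the cells, and the labels give no other time for the lungs sequenced. EVs carrying CD9, CD63 and CD81 had been collected from E15.5 mouse neural progenitors, which were wild type for one group (WT EV) and lacked Tsc1 for the other (Tsc1-null EV). ELT3 is a Tsc2-deficient rat uterine leiomyoma line that serves in studies of lymphangioleiomyomatosis, a lung disease tied to loss of the TSC genes. The recipients of both groups had the same SCID background, so the genotype named for a group is that of the EV donor cells. Untreated lungs, and lungs given only EVs or only ELT3 cells, were not analysed here. The age of the mice could not be read from the labels. Each library was taken as 1 mouse from its own sample number, and nothing else says that the samples are separate animals, so p-values measure the spread between these samples. Reads from the rat cells cannot be told apart from mouse reads in these values.

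The sarcomere is the contractile unit of striated muscle. Myosin thick filaments pull on actin thin filaments when calcium binds the troponin complex, titin spans the unit as a spring, and the Z-disc and M-band anchor the filaments. In mice, muscle of the heart type reaches from the left atrium along the wall of the pulmonary veins into the lung, so that a lung sample can carry heart muscle RNA of atrial type. The regulatory light chain differs by chamber: Myl7 is the atrial and Myl2 the ventricular form. Both Myh6, the fast cardiac myosin heavy chain, and Tnnt2, cardiac troponin T, which were used as markers of this muscle, were above 0 in every library.

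Promoters are shown here for members whose levels went together across the lungs (Myl7, Tnnt2, Nppa), for Ttn, which had the smallest p among the members, and for Myh7, whose level varied least. Each line gives the 250 bases before a RefSeq start in build GRCm38.p6, 5′ to 3′ along the gene. Capitals mark matches on either strand to the MEF2 and CArG motifs, known by those names. They also mark CATTCC, the MCAT element bound by TEAD factors. A GATA element was searched as AGATAA. The TATA box was searched as TATAAA. The windows are chr11:5898783-5899032 for Myl7 (minus strand), chr1:135836084-135836333 for Tnnt2 (plus), chr2:76982548-76982797 for Ttn (minus), chr4:148000472-148000721 for Nppa (plus) and chr14:54994627-54994876 for Myh7 (minus).
Myl7: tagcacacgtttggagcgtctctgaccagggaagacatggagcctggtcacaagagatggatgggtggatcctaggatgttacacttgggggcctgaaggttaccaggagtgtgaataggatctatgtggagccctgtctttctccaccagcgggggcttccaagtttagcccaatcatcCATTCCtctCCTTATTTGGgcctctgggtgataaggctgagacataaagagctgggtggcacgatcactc
Tnnt2: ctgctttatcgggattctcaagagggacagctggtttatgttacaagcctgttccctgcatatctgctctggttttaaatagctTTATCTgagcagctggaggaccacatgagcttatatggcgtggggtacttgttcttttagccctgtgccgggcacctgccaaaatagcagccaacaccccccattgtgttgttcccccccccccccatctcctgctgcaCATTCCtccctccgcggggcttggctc
Ttn: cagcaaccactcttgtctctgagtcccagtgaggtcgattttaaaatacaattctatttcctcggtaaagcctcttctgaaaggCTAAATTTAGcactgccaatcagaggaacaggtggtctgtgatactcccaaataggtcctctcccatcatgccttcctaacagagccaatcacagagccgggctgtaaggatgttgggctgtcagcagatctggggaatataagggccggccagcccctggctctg
Nppa: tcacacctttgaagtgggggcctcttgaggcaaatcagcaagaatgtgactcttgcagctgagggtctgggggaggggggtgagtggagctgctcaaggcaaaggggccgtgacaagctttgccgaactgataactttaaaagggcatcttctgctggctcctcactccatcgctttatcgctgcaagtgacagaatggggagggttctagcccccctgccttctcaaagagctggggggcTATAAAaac
Myh7: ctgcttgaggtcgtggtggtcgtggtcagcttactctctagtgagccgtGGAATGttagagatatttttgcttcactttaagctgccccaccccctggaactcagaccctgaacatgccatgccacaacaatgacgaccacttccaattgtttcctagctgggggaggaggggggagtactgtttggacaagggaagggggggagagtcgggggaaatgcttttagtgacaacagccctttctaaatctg

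Myl7 held a CArG match, the binding motif of serum response factor, starting 61 bases before the start (-61) and an MCAT element at -70. Tnnt2 held an MCAT element at -27 and a GATA element at -166, Ttn a MEF2 match at -166, Nppa a TATA box at -9, and Myh7 an MCAT element at -201. Tnnt2 and Myh7 each had another RefSeq window, not printed here, that held no match (chr1:135836739-135836988 and chr14:54994550-54994799). The RefSeq table held 40 promoters of 30 members. Of these 17.5% held a CArG match, against 1.47% of all 32851 promoters in windows of the same length. Counted by gene, 6 of the 30 members held one, since overlapping windows of Ldb3 held the same match. Windows of a gene can overlap, so they are not separate counts. The MEF2 motif was matched in 10.0% against 2.92%, the MCAT element in 22.5% against 12.64%, the GATA element in 22.5% against 9.99%, and the TATA box in 10.0% against 12.37%. MEF2 and TATAAA matches can overlap, and a match describes the letters only.

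The libraries held 5101413 to 9358820 reads. Among them 2 stood apart, WT EV replicate 2 and, further out, Tsc1-null EV replicate 1, with median correlations to the other libraries of 0.963 and 0.942 against 0.980 to 0.983. Malat1, a nuclear long noncoding RNA, stood at 15673 and 30060 normalized RPM in these 2 and at 1609 to 2819 elsewhere. The ribosomal RNA precursor Rn45s stood at 10881 and 13776 against 3293 to 6120. Levels below are TMM-normalized RPM, mean ± SD over the 3 libraries of a group. Log2 folds (± SE, from limma) set value + 1 in the Tsc1-null EV lungs against that in the WT EV lungs. On this scale the change of low genes is understated.

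Heart muscle genes stood lower on average in the Tsc1-null EV lungs, but no member passed the test, and the difference was smaller when Tsc1-null EV replicate 1 was left out. Limma called 0 members at an adjusted p under 0.05, as it called 0 of all 14159 genes (0%). At an unadjusted p under 0.05, 6 of the 33 tested members (18.2%) were on the lower side, against 2.97% of all genes tested, and none was on the higher side. A log2 fold below 0 was found for 31 of 33, against 52.7% of all genes, and one of -0.5 or below for 25 of 33 (75.8%), against 4.71%. Without the filter on low values, 32 of all 35 members lay below 0. The median over the tested members was -0.81, where that of all genes was -0.02. Leaving out Tsc1-null EV replicate 1 gave -0.29, and leaving out both libraries that stood apart gave -0.61. Of the 31 members below 0, 26 had a log2 fold smaller by more than 1.5 times, or above 0, without Tsc1-null EV replicate 1. Of the tested members, 32 had a mean of at least 1 in both groups, and Tbx20 had it only in the Tsc1-null EV group. In whole lung, fewer heart muscle cells and less RNA per cell cannot be told apart.

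Summed over the 35 members, the level was 1297, 807 and 1350 in the WT EV lungs and 399, 1045 and 784 in the Tsc1-null EV lungs, replicates 1 to 3. The groups overlapped, since Tsc1-null EV replicate 2 lay above WT EV replicate 2. Tsc1-null EV replicate 1 had the lowest value of all 6 lungs for 28 of the 33 members and the highest for 0. WT EV replicate 3 had the highest value for 18 members and WT EV replicate 1 for 8. Between these lay the second WT EV and the third Tsc1-null EV lung, with a median deviation from the member's own mean of -0.23 and -0.20 on the log2 scale, against 0.60 and 0.70 in WT EV replicates 1 and 3, 0.28 in Tsc1-null EV replicate 2 and -1.22 in Tsc1-null EV replicate 1. Most members thus moved together from lung to lung, and the members are not separate evidence of a difference between the groups.

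**Figure D1:**
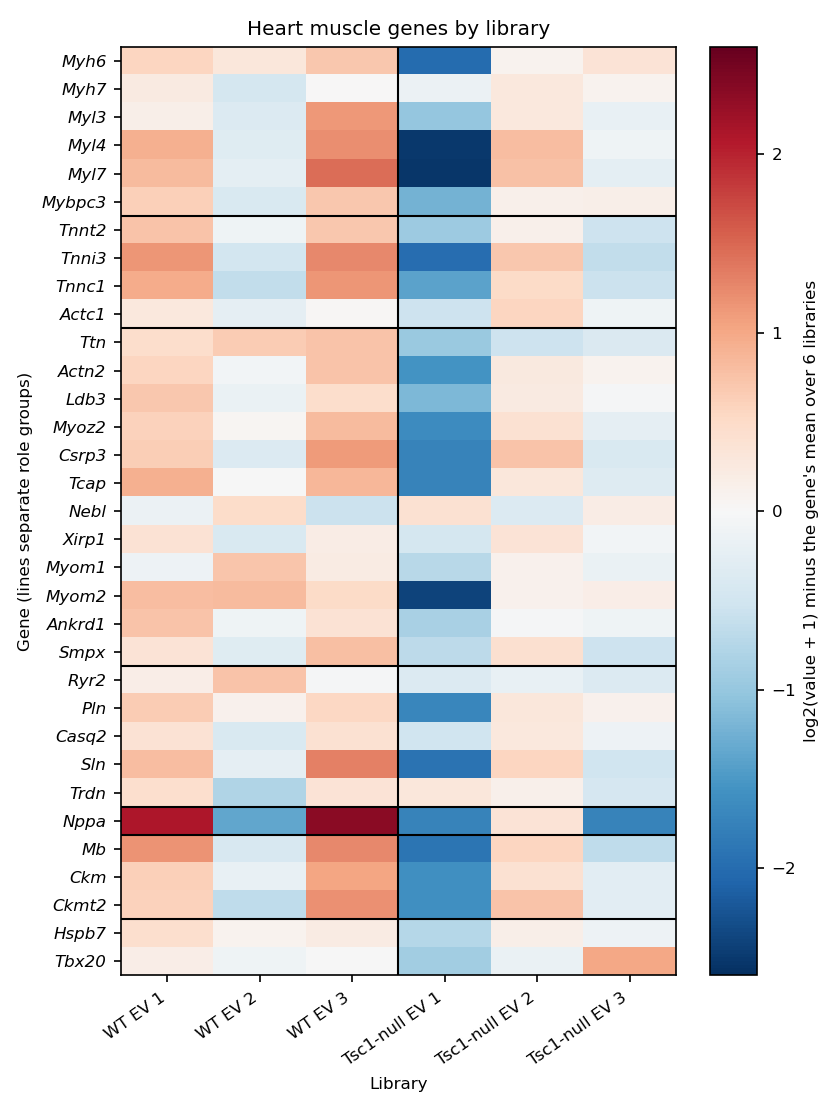
Heat map of 33 heart muscle genes (rows, in role groups) in 6 lungs (columns); colour is log2(value + 1) minus the mean of that gene over the 6 libraries. Tsc1-null EV replicate 1 is lowest for 28 of the 33 genes, and Myh7, Nebl and Ryr2 show little of the common pattern.

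Among the thick filament genes the atrial light chains varied widely between lungs. Myl7 stood at 76.5, 35.7 and 119 in the WT EV lungs and at 6.62, 73.0 and 36.0 in the Tsc1-null EV lungs (log2 fold -1.34 ± 0.76, adjusted p = 0.741 by limma). Myl4, the atrial essential light chain, followed it with 83.1, 34.5 and 101 against 6.82, 75.8 and 40.0 (log2 fold -1.21 ± 0.75). In both genes the groups overlapped, with Tsc1-null EV replicate 2 close to the WT EV lungs and WT EV replicate 2 close to Tsc1-null EV replicate 3. Without Tsc1-null EV replicate 1 the log2 folds were -0.42 for Myl7 and -0.26 for Myl4. Myh6 stood at 196, 164 and 217 in WT EV lungs, and at 32.5, 141 and 172 in Tsc1-null EV lungs (log2 fold -1.04 ± 0.53, adjusted p = 0.721 by limma). Replicate 1 was far below the other 2 of its group, which lay within or near the WT EV range, and without that library the log2 fold was -0.29.

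Myh7, the slow myosin heavy chain, stood at 105, 64.4 and 89.6 in WT EV and 79.2, 108 and 94.1 in Tsc1-null EV lungs (log2 fold 0.13 ± 0.21). It spanned only 1.67-fold over the 6 lungs, where Myh6 spanned 6.69-fold, Myl4 14.83-fold and Myl7 18.02-fold. Of the 50-base words in Myh6 transcripts, 20.2% also occur in transcripts of Myh7, so reads could be shared between these paralogs. The remaining members of this group were low. Mybpc3, cardiac myosin-binding protein C, had a mean of 3.27 in the WT EV lungs and 1.88 in the other group, and Myl3, the ventricular essential light chain, one of 2.30 and 1.08. Both had their lowest level in Tsc1-null EV replicate 1.

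Of the thin filament genes, Tnnt2 had the smallest unadjusted p. It stood at 127, 70.0 and 123 in WT EV and at 38.7, 82.7 and 51.8 in Tsc1-null EV lungs (log2 fold -0.90 ± 0.31, unadjusted p = 0.0194 and adjusted p = 0.721 by limma). The groups overlapped only through WT EV replicate 2, which lay below Tsc1-null EV replicate 2. Tnni3, the inhibitory troponin subunit of heart, was at 67.7, 21.02 and 71.9 against 6.82, 49.2 and 18.9 (log2 fold -1.27 ± 0.67). Tnnc1, the calcium-binding subunit of heart and slow muscle, was at 30.1, 9.11 and 34.2 against 5.01, 21.3 and 9.72 (log2 fold -0.98 ± 0.56). For all 3 troponin genes WT EV replicates 1 and 3 were the 2 highest lungs and Tsc1-null EV replicate 1 the lowest. Without that lowest lung the log2 fold of Tnni3 was -0.60 and that of Tnnc1 -0.53.

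Actc1, the cardiac alpha actin, departed from the troponins. Its levels were 118, 83.0 and 99.7 in WT EV and 67.0, 144 and 90.4 in Tsc1-null EV lungs, with means of 100.2 ± 17.5 and 100.6 ± 39.8 (log2 fold -0.05 ± 0.27). The highest and the lowest lung were both in the Tsc1-null EV group. Acta2, the smooth muscle actin, also had its extremes there, at 615 in Tsc1-null EV replicate 2 and 278 in replicate 1.

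**Figure D2:**
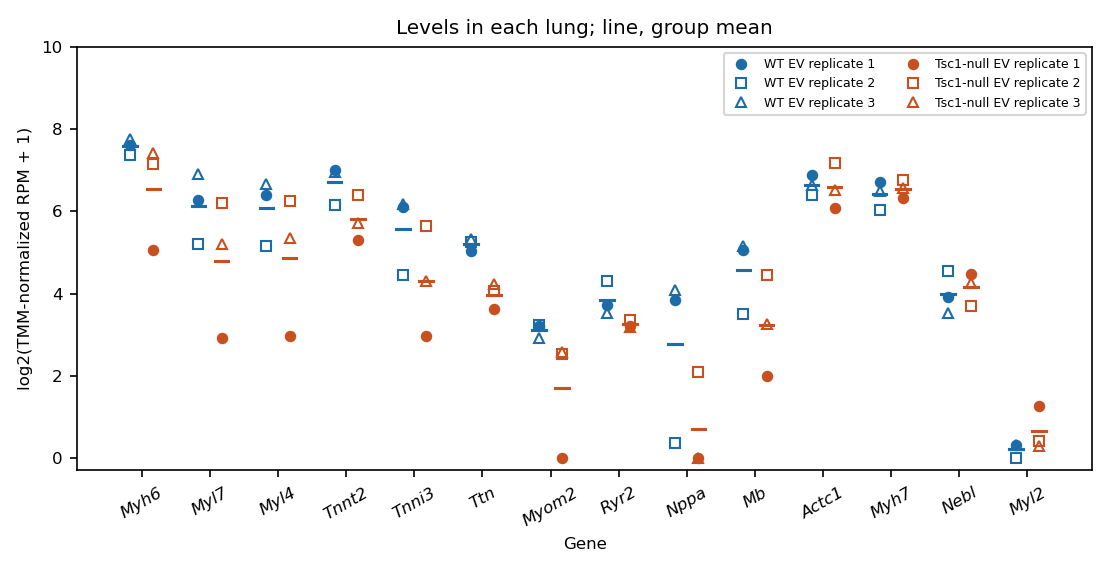
Levels of 14 heart muscle genes in each lung as log2(TMM-normalized RPM + 1); blue, WT EV; orange, Tsc1-null EV; symbols, replicates; lines, group means on that scale. The groups are apart for Ttn, Myom2 and Ryr2, and Tsc1-null EV replicate 1 lies far below its group for Myh6, Myl7, Myl4 and Tnni3.

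Ttn, which encodes the giant spring protein titin, had the smallest p of the members and ranked 3 by p among all genes tested. Its levels were 32.0, 37.3 and 39.4 in WT EV and 11.4, 15.6 and 17.7 in Tsc1-null EV lungs, and the groups did not overlap. The log2 fold was -1.24 ± 0.20 (unadjusted p = 0.000164, adjusted p = 0.721 by limma; lower in 3 of 3 lungs). Over the alternatives its log2 fold ran from -1.37 to -1.05. DESeq2 on the recovered reads called it (adjusted p = 0.000303) among 4 genes called lower of 12228 with an adjusted p (0.0327%). An adjusted p was given there for 28 of the 33 members. EdgeR did not call Ttn (adjusted p = 0.660). The gene spans positions 76703980 to 76982547 of chromosome 2, minus strand (GENCODE M21, mm10), and its longest coding transcript has 106824 bases. Per kilobase of that transcript its mean level was 0.239, against 25.1 for Myh6, 68.6 for Tnnt2 and 98.0 for Myl7.

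Groups that did not overlap, with Tsc1-null EV lower, were found for 3 of the 33 tested members (9.09%), against 6.22% of all genes tested, so their share lay near the background. No member had all 3 Tsc1-null EV lungs higher, where 6.86% of all genes did. Besides Ttn these were Myom2, a myomesin of the M-band, and Ryr2, the calcium release channel of the heart. Myom2 stood at 8.29, 8.38 and 6.54 in WT EV and at 0, 4.74 and 4.97 in Tsc1-null EV lungs (log2 fold -1.42 ± 0.62, adjusted p = 0.721 by limma). The 0 in Tsc1-null EV replicate 1 allows a level of up to 0.601, the value of 3 reads, and without that library the log2 fold was -0.57. Ryr2 stood at 12.2, 18.7 and 10.5 against 8.22, 9.27 and 8.17 (log2 fold -0.59 ± 0.23, adjusted p = 0.721 by limma). Without WT EV replicate 2, the highest lung, the log2 fold was -0.37, and the SD of the Tsc1-null EV lungs was 0.622.

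Genes of the Z-disc mostly followed the common pattern. Tcap, the titin cap protein, stood at 39.4, 20.3 and 38.1 in WT EV and at 5.41, 25.4 and 15.9 in Tsc1-null EV lungs (log2 fold -1.18 ± 0.48, unadjusted p = 0.0378). Ankrd1, a stress-responsive ankyrin repeat protein that binds titin and had the highest level of this group, was at 144, 79.4 and 111 against 47.5, 83.9 and 79.3 (log2 fold -0.66 ± 0.27, unadjusted p = 0.0398). In both the groups overlapped through WT EV replicate 2. Leaving out Tsc1-null EV replicate 1 gave log2 folds of -0.61 and -0.41. Actn2, the cross-linking alpha-actinin, the Z-disc adaptors Ldb3 and Myoz2 and the LIM protein Csrp3 had log2 folds from -0.98 for Myoz2 to -0.65 for Ldb3, and each was lowest in Tsc1-null EV replicate 1. Smpx, a small protein of striated muscle, had a mean of 4.30 in the WT EV lungs and 2.71 in the other group. Xirp1, an actin-binding protein of the adhesion sites between heart muscle cells, was at 2.24 ± 0.83 and 2.00 ± 0.86.

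Myom1 and Nebl departed from the common pattern in WT EV replicate 2. Myom1, the other myomesin, stood at 10.7, 20.3 and 13.9 in WT EV and 6.82, 12.9 and 10.5 in Tsc1-null EV lungs (log2 fold -0.53 ± 0.29). Nebl, which encodes the thin filament protein nebulette, stood at 14.1, 22.3 and 10.5 against 21.2, 12.1 and 18.2 (log2 fold 0.15 ± 0.30). WT EV replicate 2 was the highest lung for both. Myom1 was lowest in Tsc1-null EV replicate 1, as most members were, while for Nebl the 2 libraries that stood apart were the 2 highest.

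Of the other calcium-handling genes, Sln differed most between the group means. Sln encodes sarcolipin, the atrial inhibitor of the calcium pump, and stood at 13.5, 6.17 and 19.9 in WT EV and 1.203, 11.4 and 4.86 in Tsc1-null EV lungs (log2 fold -1.25 ± 0.61). Pln, phospholamban, an inhibitor of the same pump, was at 10.2, 6.61 and 9.25 against 1.203, 7.66 and 6.63 (log2 fold -0.86 ± 0.48). Without Tsc1-null EV replicate 1, the lowest lung for both, the log2 folds were -0.60 and -0.24. Casq2, the calcium store protein calsequestrin, had means of 5.46 ± 1.80 and 4.38 ± 1.47. Trdn, triadin, which ties the store to the release channel, had means of 8.44 ± 3.77 and 7.99 ± 2.22. Triadin was not low in Tsc1-null EV replicate 1, at 9.82.

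Nppa, the atrial natriuretic peptide, had the largest fold and the largest spread. It stood at 13.3, 0.294 and 15.9 in WT EV lungs, from 109, 2 and 129 reads, and at 0, 3.23 and 0 in Tsc1-null EV lungs, where replicate 2 gave 30 reads (log2 fold -2.07 ± 0.97, adjusted p = 0.721 by limma). The groups overlapped, since WT EV replicate 2 lay below Tsc1-null EV replicate 2. A count of 0 allows up to 0.601 in Tsc1-null EV replicate 1 and up to 0.331 in replicate 3, and such limits cover counting error only. Nppb, the B-type peptide, was at 0.976, 0.294 and 1.23 against 0, 0.539 and 0, from at most 10 reads. Both peptides had their 2 highest values in WT EV replicates 1 and 3.

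Genes of oxygen and energy supply ran with the light chains. Mb, myoglobin, stood at 32.6, 10.3 and 34.9 in WT EV and 3.01, 21.03 and 8.51 in Tsc1-null EV lungs (log2 fold -1.34 ± 0.63). Ckm, the muscle creatine kinase, and Ckmt2, its mitochondrial partner, had log2 folds of -0.97 ± 0.49 and -0.75 ± 0.62. Without Tsc1-null EV replicate 1 these were -0.42 and -0.14, and that of Mb was -0.72. Hspb7, a small heat shock protein of heart, was at 39.5, 31.0 and 33.6 against 16.8, 32.3 and 26.2 (log2 fold -0.49 ± 0.24). Tbx20, a transcription factor of the developing heart, lay between 0 and 2.76 in all lungs, with its highest value in Tsc1-null EV replicate 3. The smallest limma adjusted p among all members was 0.721.

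**Figure D3:**
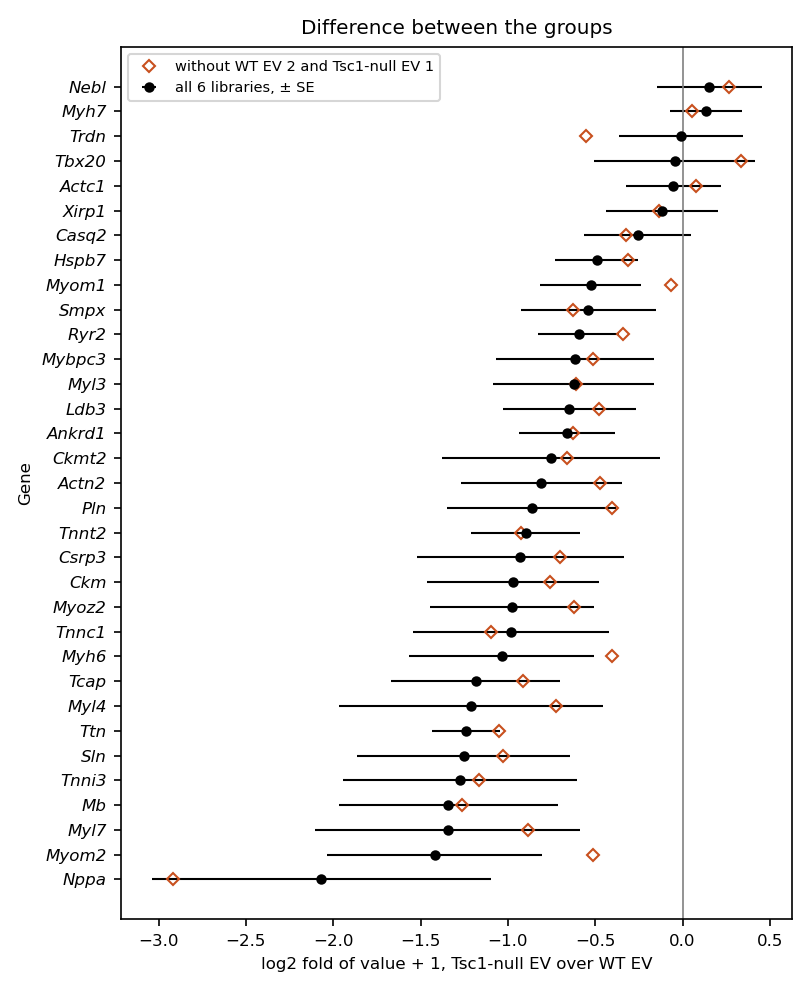
Horizontal axis, log2 fold of value + 1 (Tsc1-null EV lungs against WT EV lungs); vertical axis, 33 heart muscle genes; dots and bars, all 6 libraries ± SE; diamonds, without the 2 libraries that stood apart. Of the dots 31 lie below 0, and the bar of Ttn is short beside those of Nppa, Myl7 and Myl4.

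With library weights estimated by limma, 3 members were called lower, Ttn, Tnnt2 and Nppa (adjusted p = 0.00294, 0.0488 and 0.0485 by limma). Replicates 1 to 3 weighed 0.93, 0.39 and 4.19 with WT EV, and 0.21, 3.95 and 0.78 with Tsc1-null EV. The weighted fit thus rested mainly on 1 lung of each group, and its calls do not draw evenly on 3 lungs a group. It called 1050 of all genes, where the unweighted fit called 0. All genes called lower in that fit made up 3.3% of those tested. Without both libraries that stood apart, Ttn and Nppa were called lower (adjusted p = 0.0425 for both by limma), where 0.0918% of all genes were. That fit has 2 lungs a group, and leaving out these libraries was chosen after seeing the data.

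The levels relative to each other were also compared within libraries. For this, Ttn was chosen with an earlier report of these data known. Ttn against the mean of the other tested members, on the log2 scale, was 0.67, 1.66 and 0.86 in WT EV and 1.10, -0.02 and 0.66 in Tsc1-null EV lungs. The difference of -0.49 was smaller than the spread within the groups (SD 0.53 and 0.57; exact two-sided permutation test, p = 0.4, n = 3 each, where the smallest possible p is 0.1). The groups overlapped, and the 2 libraries that stood apart had the 2 highest values. Leaving out a single library gave -0.18 (Tsc1-null EV replicate 2), -0.19 (the second WT EV lung) or -0.75 (Tsc1-null EV replicate 1). Measured in the same way, each against the mean of the others, 5 members had groups that did not overlap. Tcap was lower with Tsc1-null EV, with 0.86 ± 0.10 for the WT EV lungs against 0.43 ± 0.29. Of all genes tested, 0.0141% were apart on that side. Higher were Casq2 (difference 0.53), Xirp1 (0.67), Actc1 (0.74) and Myh7 (0.93), that is 12.1% of the members against 17.3% of all genes. The mean subtracted was itself lower on average in the Tsc1-null EV lungs, which shifts genes outside the list to the higher side. These shares of all genes are therefore no background for the members.

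Of the light chains, the atrial forms were the abundant ones. Myl2 was at 0.244, 0 and 0.247 in WT EV and at 1.40, 0.324 and 0.221 in Tsc1-null EV lungs, from at most 7 reads (Clopper-Pearson 95% interval 0.564 to 2.89 for the 1.40). Its level per kilobase was 0.457 on average, against 98.0 for Myl7 and 60.3 for Myl4. The ratio of ventricular (Myl2, Myl3, Myh7) to atrial members (Myl4, Myl7, Sln, Nppa) had log2 values of -0.80, -0.23 and -1.44 in WT EV and 2.47, -0.57 and 0.24 in Tsc1-null EV lungs. The difference of 1.54 gave p = 0.2 (exact two-sided permutation test, n = 3 each, a design that cannot go below 0.1). Leaving out Tsc1-null EV replicate 1 gave 0.66 and leaving out replicate 2 of that group gave 2.18, and nearly all of the ventricular sum was Myh7. That sum ran from 65.3 to 110 over the lungs, and the atrial sum from 14.6 to 256. The ratio thus mainly followed the atrial level and does not give the make-up by chamber. Without Myh7 the values were -6.58, -6.44 and -5.81 against -3.19, -6.17 and -5.93 (exact permutation test, p = 0.3, n = 3 each). The Tsc1-null EV replicate 1 value rests on 7 reads of Myl2 and 1 of Myl3 over an atrial sum of 14.6.

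The 2 libraries that stood apart differed in how members of different transcript length behaved. In WT EV replicate 2, set against the mean of WT EV replicates 1 and 3, all 15 members with a longest coding transcript under 2000 bases were lower, with a median of -1.28 on the log2 scale. All 8 members of 2000 to under 5000 bases were lower too (median -0.75), while of the 10 members of 5000 bases or more 5 were lower (median -0.06). Nebl, Myom1 and Ryr2 were higher there by 0.82, 0.69 and 0.68. Over all tested genes of these length classes the medians were -0.12, -0.06 and 0.10, so the same order was seen with a smaller size. Tsc1-null EV replicate 1, set against replicates 2 and 3, was lower for all 15 short members (median -1.73), 7 of 8 in the middle class (-1.07) and 9 of 10 long ones (-0.65). The medians of all genes were -0.10, -0.04 and 0.03. The length classes were chosen after seeing the data, and the part of transcript length in the group difference was not tested.

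**Figure D4:**
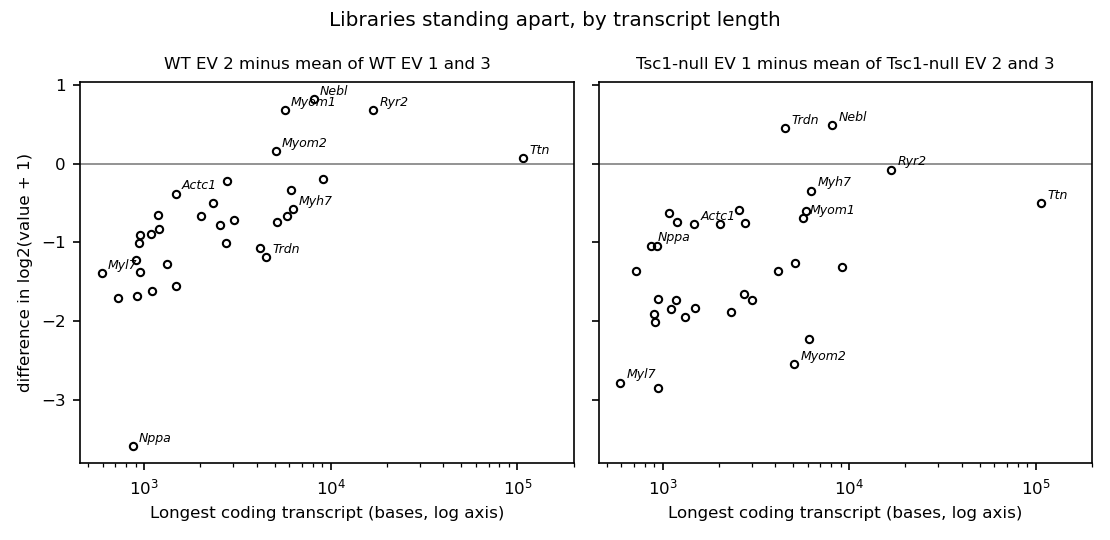
Each circle is 1 of 33 heart muscle genes, plotted by its longest coding transcript (bases, log axis) against the difference in log2(value + 1) of WT EV replicate 2 from WT EV replicates 1 and 3 (left) or of Tsc1-null EV replicate 1 from replicates 2 and 3 (right). On the left, all genes under 2000 bases lie below 0, while Nebl, Myom1 and Ryr2 lie above it.

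A further list of 38 heart muscle genes outside the members held 33 tested genes, of which 28 had a log2 fold below 0 (median -0.28) and 0 were called. Those with the smallest p were Mypn and Cmya5, which bind titin or alpha-actinin, Xirp2, a relative of Xirp1, and Cacna1c, the L-type calcium channel. Mypn stood at 3.17, 4.41 and 4.44 in WT EV and 1.203, 2.48 and 1.66 in Tsc1-null EV lungs (log2 fold -0.86 ± 0.27). Cmya5 was at 5.61, 11.9 and 6.66 against 3.01, 3.88 and 3.98 (log2 fold -0.92 ± 0.28). In both, as in Ttn, every Tsc1-null EV lung lay below every WT EV lung, which held for 5 of the list's tested genes. The opposite held for 1, Gja5, a connexin, named after its values were seen. Unlike the atrial light chains, Gja5 was not lowest in Tsc1-null EV replicate 1, and the cells it came from cannot be told in whole lung. Gja5 stood at 81.1, 56.4 and 83.4 in WT EV and 85.4, 151 and 100.4 in Tsc1-null EV lungs (log2 fold 0.58 ± 0.24, adjusted p = 0.721, and 0.0233 with library weights, by limma). Over all genes these shares were the 6.22% and 6.86% given above. Atp2a2, the calcium pump on which Pln and Sln act and which other cells also use, was at 320 ± 27.5 and 310 ± 13.0.

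Of 14 heart transcription factors 7 were tested and 0 called. Gata4 stood at 4.27, 6.76 and 3.085 in WT EV and 0.200, 2.37 and 1.33 in Tsc1-null EV lungs (log2 fold -1.38 ± 0.41, unadjusted p = 0.00908, adjusted p = 0.721 by limma). The groups did not overlap. The log2 fold was -0.73 without both libraries that stood apart and -0.55 with library weights. Gata4 is also known from mesothelium. It was highest in WT EV replicate 2, as were the mesothelial genes as a list and the members Nebl, Myom1, Myom2 and Ryr2. The cells that Gata4 RNA came from cannot be told in whole lung, and its source was not tested. Nkx2-5 stayed at or below 0.370 in every lung, and Hand1 and Irx4 were at 0 in all 6. These 3 were chosen after their values were seen, as were Ucp1 and the skeletal muscle genes named below.

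Markers of other tissues were compared lung by lung with the heart muscle genes. Measured as the mean log2(value + 1) of the tested genes less the WT EV mean, heart muscle stood at 0.22, -0.53 and 0.32 in WT EV and at -1.61, -0.10 and -0.60 in Tsc1-null EV lungs. Adipocyte genes stood at -0.17, -1.02 and 1.19 against -1.63, -0.20 and -0.91. Endothelial genes stood at 0.07, -0.23 and 0.17 against -0.74, -0.23 and 0.06. All 3 lists were highest in WT EV replicate 3 and lowest in Tsc1-null EV replicate 1. The latter was also the lowest lung for the further heart muscle, heart transcription factor, mesothelial and smooth muscle lists. The summed adipocyte level ran from 69.5 to 491 in WT EV and from 41.5 to 185 in Tsc1-null EV lungs, with 8 of 9 tested genes below 0 (median log2 fold -1.02). Ucp1, the uncoupling protein of brown fat, was at 9.50 in WT EV replicate 3 and at or below 0.147 in every other lung. The part of fat-bearing tissue in the heart muscle result was not tested.

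Mesothelial genes took another order, with -0.26, 0.68 and -0.42 in WT EV and -3.06, -0.81 and -0.35 in Tsc1-null EV lungs. They were highest in WT EV replicate 2, where the heart muscle genes were low, and shared with them the lowest lung, Tsc1-null EV replicate 1. Their sum ran from 661 to 1264 and from 242 to 724, with 8 of 9 tested genes below 0 (median log2 fold -1.35). Smooth muscle genes lay at -0.38 in that lung. Endothelial and smooth muscle genes had sums of 3085 to 4090 and 1830 to 2340 in WT EV and 2141 to 3857 and 1486 to 2332 in Tsc1-null EV lungs. Of the endothelial genes 9 of 10 lay below 0, and of the smooth muscle genes 10 of 10, with medians of -0.33 and -0.08.

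Taken as a list, skeletal muscle genes did not follow the pattern, though changes at such low levels are understated on this scale. Of 25 listed, 11 were tested, 6 below and 5 above 0 (median -0.04), and 4 were at 0 in all lungs. Groups did not overlap for 2 of the 11 on the lower side and for 0 on the higher side. Over all genes these shares were 6.22% and 6.86%. Their sum was 32.6 to 39.3 in WT EV and 35.2 to 38.3 in Tsc1-null EV lungs. The fast fibre genes Myh4 and Pvalb stayed at or below 0.539 and 0.247, and Myod1, Myog and Myf6 were at 0 in every lung. Other genes of the list were counted above that, such as Tnnt3, a fast troponin, with 18 to 58 reads a library.

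**Figure D5:**
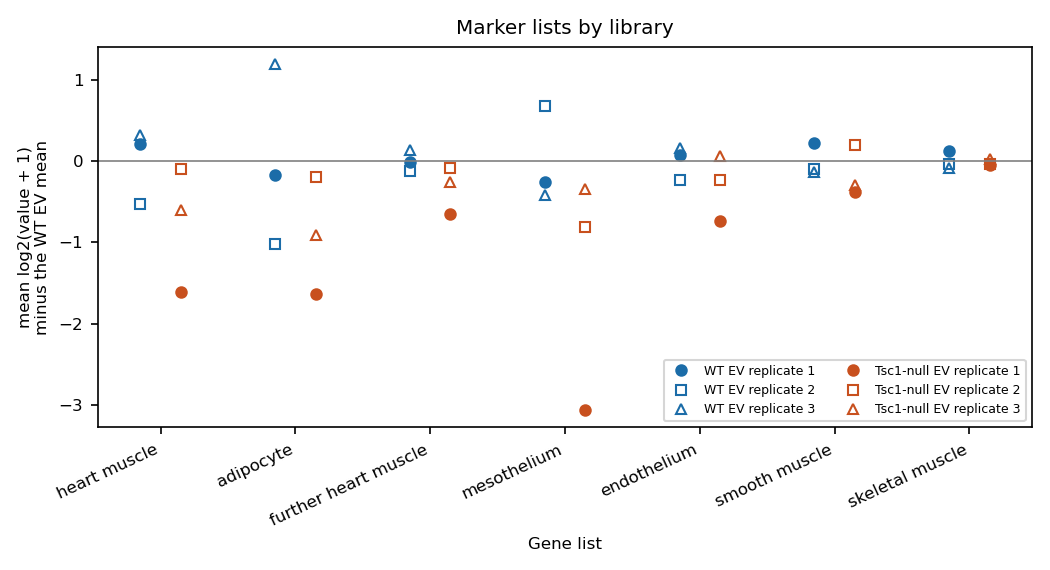
Mean log2(value + 1) of the tested genes of 7 lists in each lung, less the WT EV mean; blue, WT EV; orange, Tsc1-null EV; symbols, replicates. Heart muscle, further heart muscle, adipocyte and endothelial genes share the highest and lowest lung. Tsc1-null EV replicate 1 is lowest for every list shown except skeletal muscle. Mesothelial genes are highest in WT EV replicate 2, and skeletal muscle genes stay between -0.08 and 0.12.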

How the data were processed

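Lung RNA of 6 samples, each taken as 1 mouse, was read as trimmed paired-end Illumina reads, according to the labels. A single table was deposited by the authors, holding TMM-normalized signal for each gene and library, on a linear scale. The submitters' processing notes list Bowtie2 2.1.0, RSEM 1.2.15, edgeR and mm10 and state no roles. Neither annotation nor strand setting is known from them, so reads of antisense or overlapping genes cannot be separated. The values are multiples of what 1 read is worth in each library (100% whole within 0.001), and reads were recovered from this.

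Groups follow the treatment label. Genes with a mean of at least 1 were tested on log2(value + 1) with limma 3.58.1 (R 4.3.3, two-sided, trend on level) and Benjamini-Hochberg adjustment over all of them, with a threshold of 0.05. The members and lists were chosen with earlier results of these data known. Values in every library are given for the highest member of each role group and the 6 members with the smallest p. They are also given for members whose groups do not overlap and for members of the ratios, except Myl3, which has group means. In other lists they are given for Mypn, Cmya5, Gja5 and Gata4. Adipocyte, mesothelial, endothelial and smooth muscle genes are given mainly as list values, without the single genes of smallest p. Further genes were added after their values were seen.

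Alternatives were a pseudocount of 0.1, no filter, quantile normalization, a common median, library weights, edgeR 4.0.16 and DESeq2 1.42.0 on the recovered reads, and each library left out. The limma step was tested on simulated data. Library pairs within a group differed beyond sampling noise (chi-square per degree of freedom 8.78 to 55.2 over 6 pairs). Lengths and positions are from GENCODE M21 (coding length for 92.6% of tested genes), promoters from RefSeq GRCm38.p6.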

Additional observations from a re-analysis of the deposited data

How the results depend on the processing

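The count of members called was 0 with limma, 1 with DESeq2, 3 with library weights and 2 without both libraries standing apart, and that of all genes was 0, 11, 1050 and 25. With 1 library left out limma called 0 to 2 genes and no member. Over 14 alternatives, 27 of 33 members kept their direction in all. Of 462 alternative values 23 turned sign, all of 6 members. On the log2 scale, Actc1 was at 0.0095 with edgeR, 0.0113 with DESeq2, 0.36 with library weights and 0.0752 without both libraries standing apart, and from -0.35 to 0.20 with 1 library left out. Tbx20 was at 0.0156 with quantile normalization, 0.44 with edgeR, 0.38 with DESeq2 and 0.33 without both libraries, and from -0.56 to 0.40 with 1 left out. Xirp1 was at 0.0794 with library weights and Trdn at 0.0040 with a pseudocount of 0.1. With 1 library left out Xirp1 ran from -0.34 to 0.0852, Trdn from -0.40 to 0.21, Myh7 from -0.0596 to 0.29 and Nebl from -0.083 to 0.43. The cause was not tested. The member median ran from -1.19 (without Tsc1-null EV replicate 2) to -0.29 (without Tsc1-null EV replicate 1). No paired analysis was possible because the sample numbers of the groups do not match. Myl2 rested on at most 7 reads and Nppb on at most 10 in any library.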
